A study of Homo sapiens with 2 samples.

Results

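The genes described here encode the core of the NF-kB system: the DNA-binding subunits RELA, RELB, REL, NFKB1 and NFKB2, the inhibitors NFKBIA, NFKBIB and NFKBIE, and the deubiquitinases TNFAIP3 and CYLD. They were taken by name, as every probe set that the platform annotation pairs with exactly 1 of these 10 genes, which gave 27 of the 54613 probe sets and 10 of the 19775 genes. Total RNA was measured on 2 Affymetrix arrays, 1 array per cell line. The VHL-restored cells are a line derived from 786-O that holds a functional VHL allele, and 786-O is a human renal cell carcinoma line with a mutated VHL allele, so the 2 lines share their tumour origin. No treatment is named in the labels of either array, and the labels do not say whether the restored line is a single clone or a pool. The design addressed which transcripts depend on functional VHL, the part of a ubiquitin ligase that recognises HIF alpha subunits.

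NF-kB is a family of dimeric transcription factors that switch on inflammatory, survival and immune genes. In resting cells the dimers are held in the cytoplasm by IkB proteins, and signals from cytokine receptors activate the IkB kinases, whose phosphorylation of IkB leads to its ubiquitination and destruction. TNFAIP3, also called A20, and CYLD cut back the ubiquitin chains on which this signal depends. Several of these genes, NFKBIA and TNFAIP3 among them, are themselves NF-kB targets and so report on as well as restrain the pathway. In clear-cell kidney cancer, NF-kB activity has been linked to loss of VHL. Arrays measure RNA, and neither IkB destruction nor the nuclear entry of the subunits was measured.

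Sequence around the start sites was examined because NF-kB genes feed back on each other. The RefSeq promoter table (GRCh38.p14, 250 bases before to 50 after each start) held 15 windows for 8 of the 10 genes, and RELB and NFKBIE had none. The letters GGGNNNTTCC, a form of the NF-kB binding sequence, were searched on both strands. They occurred in 8 of the 15 windows and in at least 1 window of 7 of the 8 genes, RELA being the exception. They also occurred in 6.52% of all 35116 windows and in 7.83% of all 27305 genes of that table. The 4 windows below are shown because they belong to genes whose values went different ways, TNFAIP3 and REL being lower in VHL-restored cells, NFKB1 nearly equal and NFKBIA higher. Capitals mark matches to the searched letters, read on the strand of the gene, so that a match on the other strand appears as its reverse complement.
TNFAIP3, chr6:137867009-137867308, plus strand: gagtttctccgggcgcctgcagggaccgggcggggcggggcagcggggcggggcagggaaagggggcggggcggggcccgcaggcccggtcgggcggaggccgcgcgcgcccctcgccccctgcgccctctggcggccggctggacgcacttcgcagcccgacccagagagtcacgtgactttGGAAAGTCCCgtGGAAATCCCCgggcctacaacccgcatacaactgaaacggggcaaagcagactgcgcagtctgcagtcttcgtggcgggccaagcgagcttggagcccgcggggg
REL, chr2:60881324-60881623, plus strand: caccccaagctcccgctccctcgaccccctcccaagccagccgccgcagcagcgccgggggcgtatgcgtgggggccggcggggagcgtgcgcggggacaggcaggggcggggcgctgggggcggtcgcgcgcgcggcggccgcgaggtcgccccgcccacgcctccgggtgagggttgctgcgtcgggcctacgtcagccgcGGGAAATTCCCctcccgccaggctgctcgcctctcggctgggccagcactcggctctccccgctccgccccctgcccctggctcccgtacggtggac
NFKB1, chr4:102501109-102501408, plus strand: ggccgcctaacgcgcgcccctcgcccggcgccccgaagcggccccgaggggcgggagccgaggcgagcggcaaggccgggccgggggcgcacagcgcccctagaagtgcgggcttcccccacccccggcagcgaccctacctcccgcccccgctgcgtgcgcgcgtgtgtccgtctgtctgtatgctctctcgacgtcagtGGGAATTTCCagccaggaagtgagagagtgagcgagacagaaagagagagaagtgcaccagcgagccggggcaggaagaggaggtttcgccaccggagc
NFKBIA, chr14:35404700-35404999, minus strand: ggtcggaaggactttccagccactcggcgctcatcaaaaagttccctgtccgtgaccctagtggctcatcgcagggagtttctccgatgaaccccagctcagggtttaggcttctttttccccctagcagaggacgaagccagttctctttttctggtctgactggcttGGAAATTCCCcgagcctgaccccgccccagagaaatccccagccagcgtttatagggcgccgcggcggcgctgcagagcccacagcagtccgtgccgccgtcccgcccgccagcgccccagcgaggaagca
TNFAIP3 had 2 matches, from 67 to 58 and from 55 to 46 bases before the start. NFKB1 had 1 match in the window shown, from 49 to 40 bases before the start, and none in its other window. NFKBIA had 1 match, from 81 to 72 bases before its start. In REL 2 matches on opposite strands overlapped by all but 1 base, because the letters there read nearly the same on both strands. The core of the HIF binding sequence, ACGTG, occurred on both strands of the TNFAIP3 window, where its 2 matches overlap, and in no window of the other 7 genes, against 21.4% of all windows. These matches describe letters only, and binding was not measured.

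The arrays had median intensities of 22.6 in VHL-restored cells and 22.0 in 786-O, in arbitrary units. A probe set was taken as above the floor where either array exceeded 22.3, the median of all values, which 28596 probe sets did. VHL itself gave 15.96 in VHL-restored cells and 28.9 in 786-O on 1 probe set, and 7.96 in VHL-restored cells and 6.32 in 786-O on the other. Both lay near or below the floor and need not detect the introduced copy, so they do not check the labels, and each direction below rests on those labels. Renal epithelial markers were present in both lines, with KRT18 at 4960 in VHL-restored cells and 5315 in 786-O and PAX8 at 1068 in VHL-restored cells and 1521 in 786-O. All 6 leukocyte markers with a probe set, PTPRC and CD3E included, were below the floor on both arrays, with summed intensities of 91.9 in VHL-restored cells and 84.7 in 786-O. Of the endothelial markers 3 of 5 exceeded the floor, none above 28.93, and their sums were 107 in VHL-restored cells and 86.5 in 786-O. Of the fibroblast and pericyte markers 2 of 5 did, and their sums were 164 in VHL-restored cells and 143 in 786-O. LUM, the gene of the matrix protein lumican, had 37.1 in VHL-restored cells and lay below the floor at 5.64 in 786-O, at least 1.39-fold higher, while COL1A1 differed by -0.21 on its brighter probe set. The part of such cells in the results below was not tested.

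Each intensity was taken as log2(value + 16), and a difference is VHL-restored cells minus 786-O on that scale. Values above 0 are therefore higher in VHL-restored cells, and the added 16 understates differences of dim probe sets. With 1 array per line no test and no standard error could be had, and sizes were read against 2 descriptions of these arrays. The first is the share of all probe sets past the same fold. The second is the span from the 5th to the 95th percentile of the differences in the decile of mean level, over probe sets above the floor, to which the probe set belongs. Of the 27 probe sets 19 were above the floor on both arrays, 2 in 786-O alone and 6 on neither.

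TNFAIP3 was the only one of the 10 genes to differ 2-fold on this scale, and it was lower in VHL-restored cells on both of its probe sets. NFKBIA and NFKBIE were modestly higher in VHL-restored cells, and RELA, RELB and NFKBIB lower by less than 2-fold. REL was lower on each probe set above the floor, by less than 2-fold on 2 of them and with only a lower bound on the third. At the 2-fold size 2 of the 21 probe sets above the floor differed, both lower and both of TNFAIP3, and none was higher. Over all 28596 probe sets above the floor the share past 2-fold was 3.90%, made up of 1.33% higher and 2.57% lower in VHL-restored cells. At 1.5-fold 5 of the 21 were lower and none higher, where 13.6% of all probe sets were apart, 5.94% higher and 7.64% lower. The 5 were the TNFAIP3 pair and 1 probe set each of RELA, REL and CYLD. In all 16 of the 21 were lower and 5 higher, with a median of -0.26, beside 43.9% lower and a median of 0.04 among all probe sets above the floor. The 2 that passed the floor through 786-O alone had to be lower, and over all 27 probe sets with no floor the median was -0.15.

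**Figure D1:**
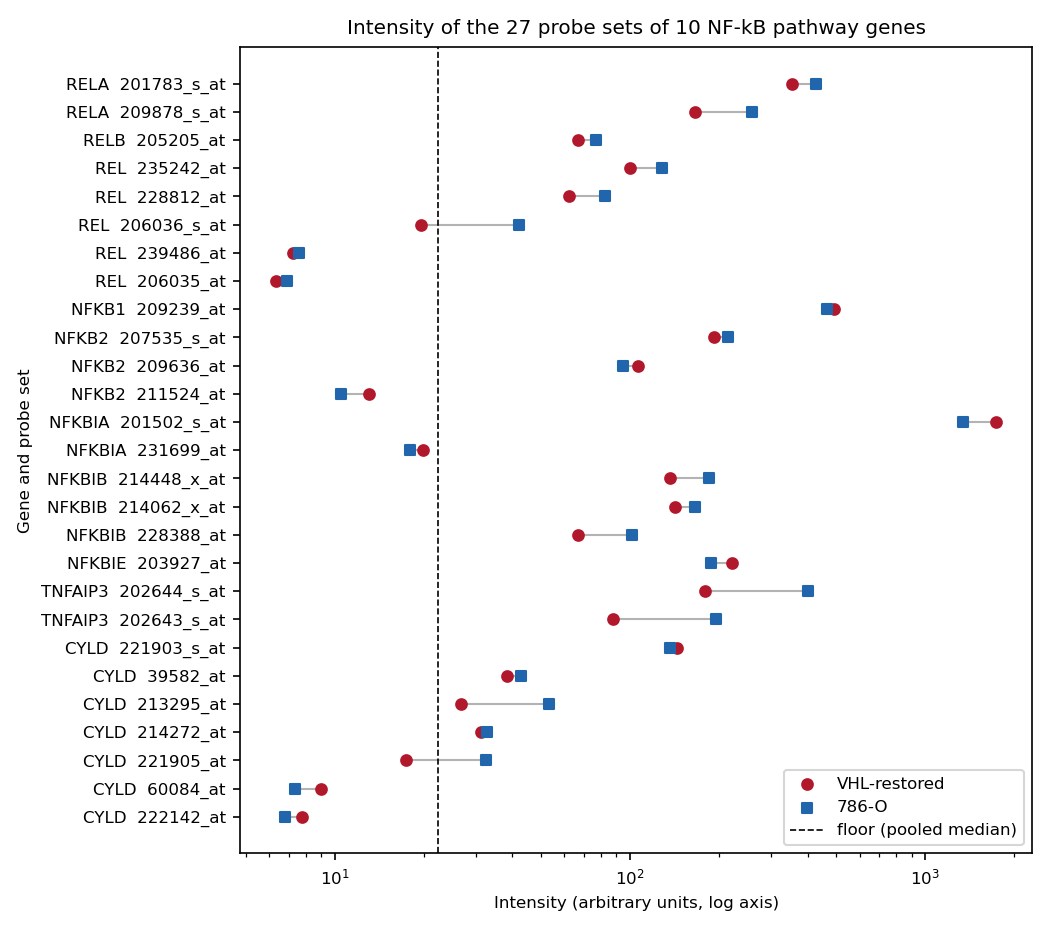
Intensity of each of the 27 probe sets in VHL-restored cells (circles) and 786-O (squares) on a log axis, 1 array each, with the floor of 22.3 as a dashed line. The widest gaps among the brighter probe sets are those of TNFAIP3, with VHL-restored cells to the left of 786-O, whereas NFKBIA and NFKBIE have VHL-restored cells to the right.

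RELA and NFKB1 together form the classic NF-kB dimer, RELA carrying the transactivation domain and NFKB1 giving a precursor that is processed to a DNA-binding partner. RELA had an intensity of 355 in VHL-restored cells and 429 in 786-O on its brighter probe set, and 166 in VHL-restored cells and 258 in 786-O on its dimmer one. Both probe sets were thus lower in VHL-restored cells, with differences of -0.26 and -0.59. NFKB1 had 493 in VHL-restored cells and 464 in 786-O on its single probe set, a difference of 0.09. The partners of the classic dimer therefore lay on opposite sides of 0, and each difference was inside the span for its level, which ran from -0.83 or -0.82 to 0.74 for RELA and from -0.74 to 0.71 for NFKB1.

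REL, a subunit best known from lymphocytes, was lower in VHL-restored cells on each of the 3 probe sets above the floor. The dimmest of them passed the floor through 786-O alone and so had to be lower. It gave 99.7 in VHL-restored cells and 129 in 786-O on the brightest, and 62.2 in VHL-restored cells and 82.3 in 786-O on the next, with differences of -0.32 and -0.33. The dimmest of the 3 gave 19.7 in VHL-restored cells, below the floor, and 42.1 in 786-O. Its fold is therefore a lower bound, at least 1.52-fold lower in VHL-restored cells, and its difference of -0.70 lay below the span of -0.51 to 0.41 for that level. This was the probe set most sensitive to the added constant, with -1.06 for a constant of 1 and -0.34 for a constant of 64. The other 2 REL probe sets were between 6.34 and 7.59 on both arrays and carry no usable level.

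RELB and NFKB2 form the dimer of the non-canonical pathway, in which the NFKB2 precursor itself acts as an inhibitor until it is processed. RELB had 66.6 in VHL-restored cells and 76.8 in 786-O, a difference of -0.17. NFKB2 went both ways, at 193 in VHL-restored cells and 215 in 786-O on the brighter probe set, and at 106 in VHL-restored cells and 95 in 786-O on the dimmer one. Its differences of -0.15 and 0.14 nearly cancel, and its remaining probe set was below the floor at 13.1 in VHL-restored cells and 10.5 in 786-O. Of the 9 subunit probe sets above the floor 7 were lower and 2 higher in VHL-restored cells, with a median of -0.26. The 8 measured above the floor in both lines were less than 2-fold apart. The other was the REL probe set with a lower bound, which had to be lower.

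The 3 IkB inhibitors did not share a direction. NFKBIA encodes IkB alpha, the rapidly destroyed and rapidly remade inhibitor, and had an intensity of 1739 in VHL-restored cells and 1340 in 786-O on its brighter probe set. It was 1.29-fold higher in VHL-restored cells, a difference of 0.37 at percentile 85.9 of all probe sets above the floor and inside the span of -0.58 to 0.62 for its level. Its second probe set was below the floor at 19.98 in VHL-restored cells and 17.96 in 786-O. NFKBIE, which encodes IkB epsilon, had 221 in VHL-restored cells and 188 in 786-O, a difference of 0.22. NFKBIA and NFKBIE were the 2 genes furthest above 0 of the 10, each on 1 probe set only.

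NFKBIB, which encodes IkB beta, was lower in VHL-restored cells on all 3 of its probe sets. They gave 137 in VHL-restored cells and 185 in 786-O on the brightest, 142 in VHL-restored cells and 167 in 786-O on the next, and 66.8 in VHL-restored cells and 101 in 786-O on the dimmest. The differences of -0.40, -0.21 and -0.50 had an SD of 0.15 between probe sets, and each lay inside the span for its level. The first 2 carry the _x_at suffix, which marks probes that may also bind other transcripts, and the third, which does not, differed most.

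TNFAIP3 encodes a ubiquitin-editing enzyme that ends NF-kB signalling and is induced by NF-kB as negative feedback. Its intensity was 179 in VHL-restored cells and 400 in 786-O on the brighter probe set, and 87.6 in VHL-restored cells and 195 in 786-O on the dimmer one. The ratio of the deposited intensities, 786-O over VHL-restored cells, was 2.23 on both probe sets. By that ratio the dim REL probe set with 19.7 in VHL-restored cells had 2.14, and the dim CYLD one with 26.8 in VHL-restored cells had 1.99. On the log2(value + 16) scale TNFAIP3 was 2.13-fold and 2.04-fold lower in VHL-restored cells, with differences of -1.09 and -1.03. They lay at percentiles 2.05 and 2.42 of all probe sets above the floor and below the spans for their levels, whose lower ends were -0.83 and -0.90. Of the probe sets in the same deciles 5.35% and 5.73% were at least 2-fold apart in either direction. The 2-fold size depended on settings: with a constant of 64 the differences were -0.93 and -0.77, and with quantile normalization the dimmer probe set had -0.99. Both TNFAIP3 probe sets carry the _s_at suffix, so the gene has no value without suffixed probe sets.

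CYLD, a tumour suppressor that removes ubiquitin chains from NF-kB signalling proteins, gave probe sets with unequal differences. The brightest had 144 in VHL-restored cells and 137 in 786-O, a difference of 0.07. A dimmer one had 38.2 in VHL-restored cells and 42.7 in 786-O, and another 31.4 in VHL-restored cells and 32.7 in 786-O, with differences of -0.11 and -0.04. Against these 3 nearly equal pairs, a further probe set had 26.8 in VHL-restored cells and 53.4 in 786-O, a difference of -0.70 below the span of -0.66 to 0.48. The fifth had 17.4 in VHL-restored cells, below the floor, and 32.5 in 786-O, and was at least 1.27-fold lower. It passed the floor through 786-O alone and so had to be lower. The SD between the 5 CYLD probe sets was 0.33, against 0.05 between the 2 of TNFAIP3. Which CYLD transcripts each probe set detects was not analysed here, and the other 2 were below the floor on both arrays.

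Probe sets of one gene give the only repeat measurement here, and it covers neither cultures nor arrays. Over the 6 of the 10 genes with more than 1 such probe set above the floor, 17 probe sets in all, the pooled SD between probe sets of a gene was 0.25 log2 units. Over all 6436 such genes on the arrays it was 0.33. TNFAIP3 differed from 0 by over 3 times that wider spread, NFKBIA on its single probe set by 0.37, and each of the other 8 genes had at least 1 probe set within 0.33 of 0. Genes with several probe sets meet that condition more easily. By the median over their probe sets above the floor RELA, at -0.42, and NFKBIB, at -0.40, lay further from 0 than NFKBIA. Of the 10 genes 5 were lower on every probe set above the floor, RELA, RELB, REL, NFKBIB and TNFAIP3. NFKB1, NFKBIA and NFKBIE were higher on their single one, and NFKB2 and CYLD were mixed.

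**Figure D2:**
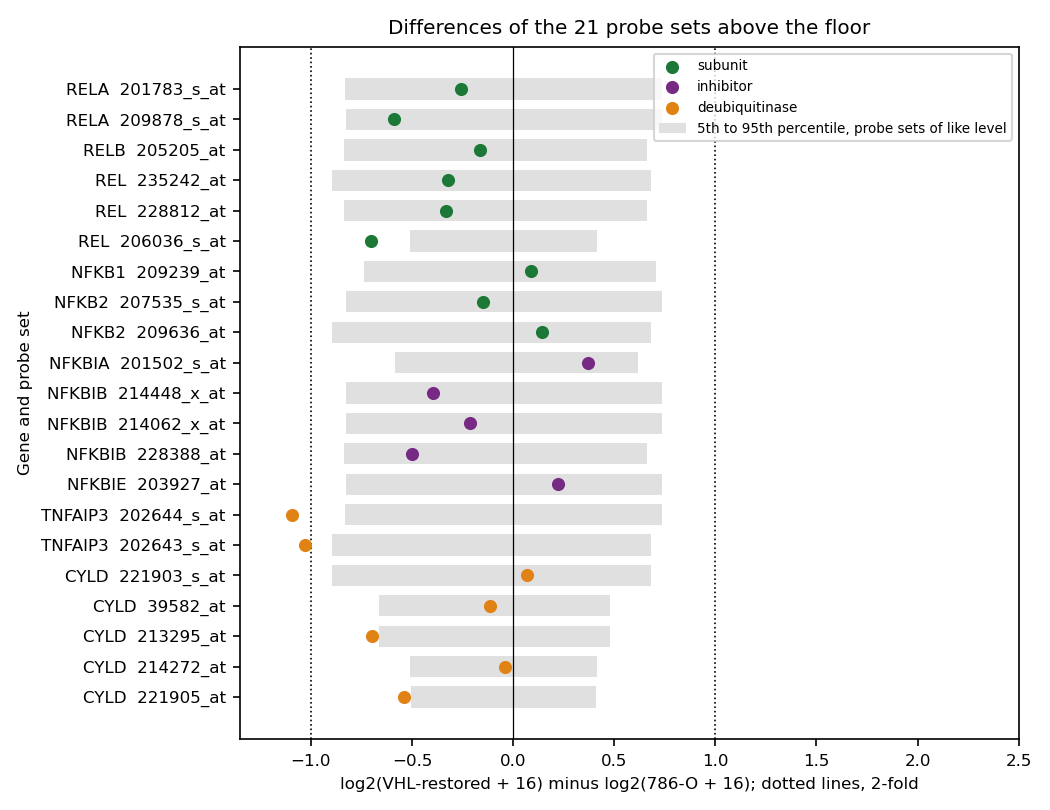
Difference in log2(intensity + 16), VHL-restored cells minus 786-O, for the 21 probe sets above the floor, coloured by role, with grey bars from the 5th to the 95th percentile of probe sets of similar level. Both TNFAIP3 probe sets lie past the dotted 2-fold line and left of their bars. In addition, 1 REL and 2 CYLD probe sets lie left of theirs. The REL one and 1 of the CYLD ones passed the floor through 786-O alone and so had to be lower.

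The 2 lines may differ in whole chromosome stretches, so each gene was set beside the 15 genes above the floor on either side of it, ordered by GRCh38.p14. TNFAIP3, on chromosome 6 at 137866349 to 137883312, had a neighbour median of -0.01, with none of its 30 neighbours 2-fold apart. REL, at -0.32, had a neighbour median of -0.04, and RELA, at -0.26, one of -0.06 with 2 neighbours at least 2-fold lower and 1 higher. NFKBIB, at -0.40, had the lowest neighbour median of the 10, -0.17, with 2 of 30 at least 2-fold lower. NFKBIA, at 0.37, had 0.11, and NFKBIE, at 0.22, had 0.06. Each of RELA, RELB, REL, NFKBIA, NFKBIB, NFKBIE and TNFAIP3 had the sign of its neighbour median and lay further from 0. NFKB1, at 0.09, and CYLD, at 0.07, lay nearer 0 than their neighbour medians of 0.16 and 0.09. NFKB2, at -0.15, had the opposite sign to its neighbour median of 0.11. A median of 30 genes varies less than 1 gene, so lying further from 0 does not by itself set a gene apart.

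**Figure D3:**
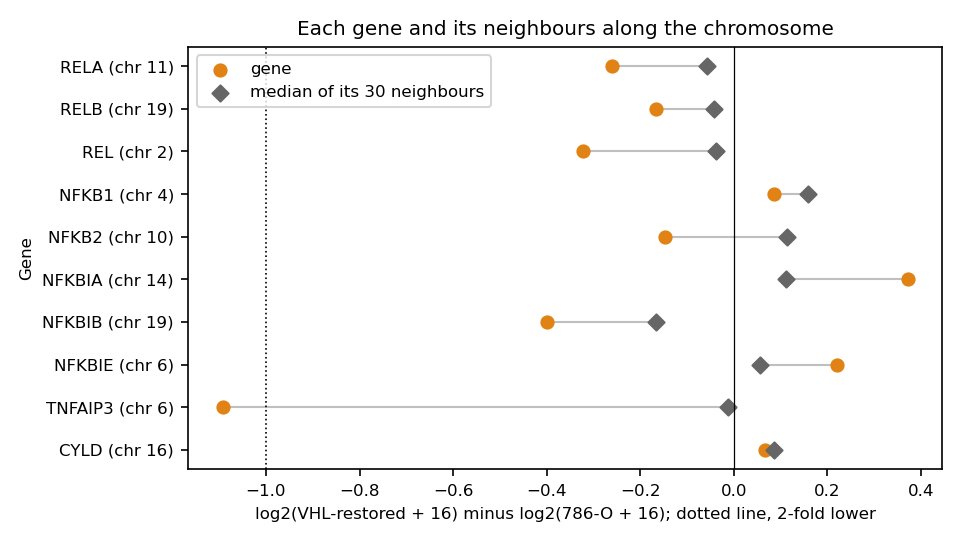
Difference of each gene on its brightest probe set (circles) and the median difference of its 30 neighbours along the chromosome (diamonds), in log2(intensity + 16), VHL-restored cells minus 786-O. The TNFAIP3 neighbours sit at -0.01 while the gene sits at -1.09, and the neighbour medians run from -0.17 to 0.16.

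Around this core, 1 probe set per gene, the brightest, was taken for 92 genes of the pathway, of which 83 had a single-gene probe set and 77 were above the floor. Of the 77, 3 were at least 2-fold higher and 9 at least 2-fold lower in VHL-restored cells. The 9 include TNFAIP6, which passed the floor through 786-O alone and so had to be lower. The share of all 13291 genes above the floor past that size was 3.72%, made up of 1.54% on the higher side and 2.18% on the lower. The pathway lists were chosen with earlier results of these data known, so their counts do not test for an excess. Most of the 12 were NF-kB targets: the lists that act in signalling held 52 genes above the floor, and 2 of these were 2-fold higher and 2 lower. Their median was 0.03, beside 0.05 for all genes above the floor. Of all 13291 genes above the floor 7555 were higher and 5553 lower, beside which the directions in each list below are to be read.

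Among 10 IkB kinases and activating kinases above the floor 6 were higher and 4 lower in VHL-restored cells, with a median of 0.25. MAP3K14, the kinase NIK that triggers processing of the NFKB2 precursor, was alone in being 2-fold apart. It had 421 in VHL-restored cells and 143 in 786-O, and was 2.75-fold higher in VHL-restored cells on its single probe set above the floor. The IKK-related kinases IKBKE and TBK1 differed by 0.52 and 0.46 and the IkB kinase activator MAP3K7 by 0.35. CHUK and IKBKB, the 2 catalytic subunits of the IkB kinase itself, were chosen for mention with their values known and differed by -0.12 and -0.10.

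Among 13 adaptors and ubiquitin ligases 7 were higher and 6 lower, with a median of 0.09. BIRC2, the ligase cIAP1 that keeps NIK low in resting cells, had 1231 in VHL-restored cells and 3552 in 786-O and was 2.86-fold lower in VHL-restored cells, again on a single probe set. The Toll-like receptor adaptor MYD88 differed by 0.59, SHARPIN of the linear ubiquitin ligase by -0.57 and the kinase adaptor RIPK2 by 0.45. The other RIPK2 probe set above the floor differed by 0.09. The 30 genes around BIRC2 on chromosome 11 had a median of -0.28, with 24 lower and 3 of them at least 2-fold lower, and whether BIRC2 moved with that stretch was not tested. The 30 around MAP3K14 had a median of 0.05. MAP3K14 and BIRC2 were the widest apart of these signalling genes, in opposite directions. RELB and NFKB2 stayed within 0.17 of 0. Whether the differences of MAP3K14, BIRC2, RELB and NFKB2 are connected was not tested, and the NIK and cIAP1 proteins were not measured.

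In the SCF ligase that marks phosphorylated IkB none of 5 genes was 2-fold apart. Its substrate receptors FBXW11 and BTRC differed by -0.33 and -0.22 and the scaffold CUL1 by 0.25, while the other 2 BTRC probe sets differed by 0.01 and 0.28. Nor was any of the 8 other deubiquitinases and partners of TNFAIP3 and CYLD on its brightest probe set, with a median of 0.09. The ubiquitin ligase ITCH, a partner of TNFAIP3, differed by 0.15 there, but the lowest of its other 5 probe sets differed by -1.36. TNIP2, an A20-binding protein, differed by -0.45, RNF11, a further part of the A20 complex, by 0.38, and OTULIN, which cuts linear ubiquitin chains, by 0.32. The atypical IkB proteins NFKBIZ and NFKBID differed by -0.34 and -0.19, but the second NFKBIZ probe set was lower by more than 2-fold.

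Among 14 receptors and ligands 6 were higher and 8 lower, with a median of -0.09. TNFRSF1B and TLR3 passed the floor through VHL-restored cells alone and so had to be higher. TNF, the cytokine that gave the pathway its best-studied stimulus, had 24.1 in VHL-restored cells and 89.0 in 786-O and was 2.62-fold lower in VHL-restored cells, where it lay just above the floor. IL1R1, the interleukin-1 receptor, had 330 in VHL-restored cells and 134 in 786-O, 2.31-fold higher in VHL-restored cells, although its other probe set differed by 0.32. TNFRSF11A, the receptor RANK, differed by -0.70 and IL1RAP, the partner of IL1R1, by 0.68. Their other probe sets above the floor differed by -0.20 for TNFRSF11A and 0.44 for IL1RAP. TLR3, below the floor in 786-O, was at least 1.27-fold higher.

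NF-kB targets were placed beside the core as its usual output. Of 25 above the floor 15 were lower, 9 higher and 1 equal in VHL-restored cells, with a median of -0.40, and 7 were at least 2-fold lower and 1 higher. TNFAIP6 and BCL2A1 passed the floor through 786-O alone and so had to be lower. For TNFAIP6 the fold is a lower bound, at least 4.56-fold lower. The 7 were LCN2, C3, TNFAIP6, CXCL1, CXCL2, CXCL8 and CXCL3, from an iron-binding protein and a complement component to neutrophil chemokines, and the 1 higher was the adhesion molecule gene VCAM1. The urokinase gene PLAU, TNFAIP2 and the chemokine gene CX3CL1 differed by 0.98, 0.96 and 0.92, with a second TNFAIP2 probe set at -0.62 and a second CX3CL1 probe set past 2-fold at 1.38. TNFAIP3 thus lay with the lower targets, among them CCL2 at -0.88 and ICAM1 at -0.60. NFKBIA lay with the higher ones, among them IRF1 at 0.45 and IL6 at 0.41. CCL2, ICAM1, IRF1 and IL6 were chosen for mention with their values known.

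**Figure D4:**
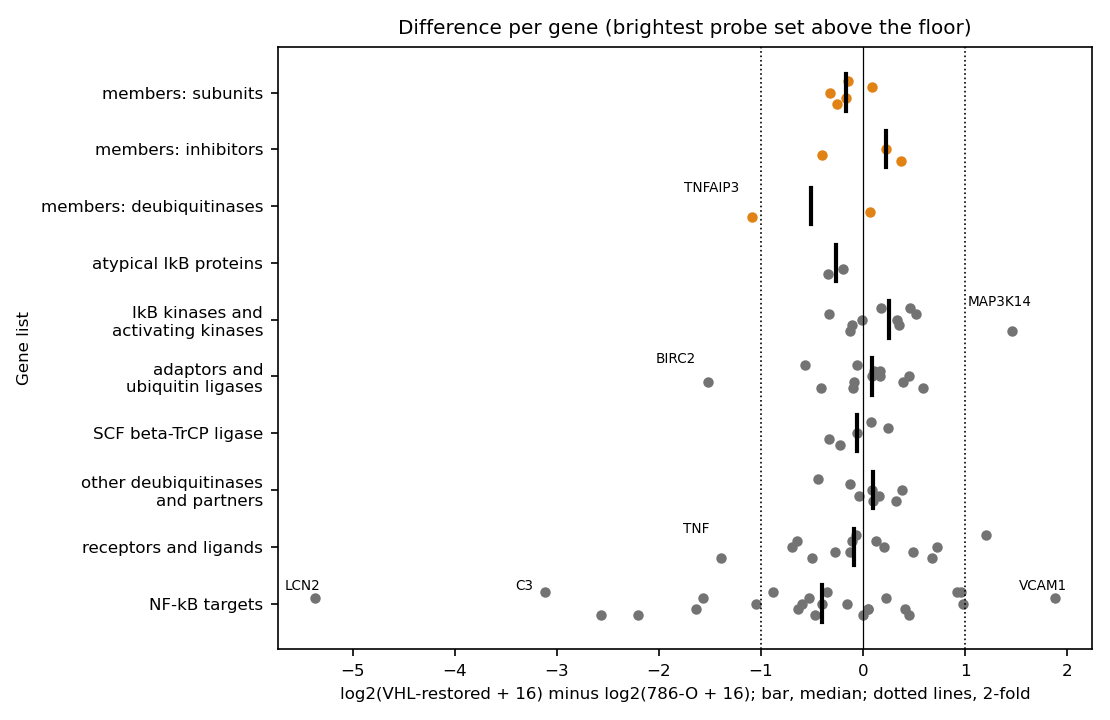
Difference in log2(intensity + 16), VHL-restored cells minus 786-O, of each gene above the floor on its brightest probe set, by list, with the 10 core genes in orange and the list median as a bar. TNFAIP3 is the only core gene past a 2-fold line, and most genes past one are NF-kB targets, from LCN2 at -5.37 to VCAM1 at 1.88.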

How the data were processed

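The authors deposited 1 intensity per probe set and array, whose range is that of a linear scale. The submitters' processing notes name R 2.10 and no other tool, so how background, normalization and probe summary were handled is unknown, and any of these could shrink or shift a difference. The platform annotation paired 41091 probe sets with 1 gene, 1801 with several and left 11721 unnamed here, and 41037 symbols were updated by Entrez number to RefSeq names (GRCh38.p14). Members, lists and naming rule were chosen with earlier results of these data known. The text names all 10 members, and of each pathway list the genes at least 2-fold apart and up to 3 others with the largest difference. A gene's brightest probe set has the highest mean log2(value + 16). No likeness of pattern to other genes was computed, because 2 arrays give 1 difference per gene. The number of arrays limits precision. Alternatives were other added constants, quantile normalization, lowess removal of the intensity trend, other floors, no suffixed probe sets, the median over probe sets and 1.5-fold. The procedure was checked on values with planted differences. These were larger than those of the 10 genes and placed in bright probe sets only, so the check does not cover small differences or dim probe sets. Python 3.11.15, numpy 2.4.6, pandas 2.3.3, statsmodels 0.14.6 and matplotlib 3.10.9 were used.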

Additional observations from a re-analysis of the deposited data

How the results depend on the processing

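No paired analysis was possible because there was a single array of either line, which also left no replicate to leave out. The count of 2 member probe sets at least 2-fold apart was 0 of 21 with an added constant of 64, which shrinks differences of dim probe sets, 1 with quantile normalization, 0 of the 11 left without suffixed probe sets, and 5 at 1.5-fold. It was 3 with a constant of 1 and 2 with the intensity trend removed, with no floor and with a floor at percentile 75. The share of all probe sets past 2-fold, 3.90% as reported, moved too, to 1.74% with a constant of 64, 5.96% with 1, 2.04% with no floor and 5.77% at percentile 75, and it was between 3.74% and 3.97% in the other 2-fold alternatives. The median difference of member probe sets ran from -0.31 with the trend removed to -0.15 with no floor. All 84 values of the 21 probe sets, under 2 other constants, quantile normalization and trend removal, kept their sign. A constant added to both arrays cannot change a sign, so only quantile normalization and trend removal could have done so. The count of 12 pathway genes at least 2-fold apart was 7 of 53 without suffixed probe sets and 23 at 1.5-fold, and from 9 to 15 in the other alternatives.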
